A study of Ovis aries with 2 samples.

Results

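A group of 707 sheep loci that carried the same Ensembl gene identifier in a thin-tail and a fat-tail library of subcutaneous fat was followed by level, ratio and position. The members were the identifiers listed once in each table, off the mitochondrial chromosome, with a span (end minus start) of at least 200 bp, a level above 0 in both libraries and at least 1 FPKM in at least 1 of them. FPKM is the number of sequenced fragments per kilobase of transcript, scaled to the mapped fragments of the library. The tables held 34927 loci for the thin-tail and 36511 for the fat-tail library. The members were thus selected on their measured FPKM, so their presence in both libraries is not a result, and the identifiers at 0 in 1 library, where the ratio has no limit, were left out by construction.

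The thin-tail and the fat-tail library each came from lambs of Iranian native breeds, with no treatment, weaned at 90 days, given the same feed without restriction for 120 days and slaughtered at 7 months. The tail type was read from the title of each library, and because both libraries carry the same tissue label, subcutaneous fat, the word Fat in 1 title could also stand for the tissue. The direction of every difference rests on that reading. With a single library for each tail type, nothing below has a replicate check and no p-value was computed. The labels do not say whether 1 animal or several gave the RNA of a library.

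Subcutaneous adipose tissue stores triglyceride in fat cells, which lie among blood vessel, connective tissue and immune cells. Fat-tailed breeds deposit much of their fat in the tail, whereas thin-tailed breeds do not. An Ensembl gene identifier denotes an annotated gene, so a locus with the same identifier in both tables is the same gene model whatever was assembled around it. Most loci of these tables carry a name particular to 1 library instead. Neither table pairs the identifiers with gene symbols, and none of the 707 occurred among the 35057 genes of the RefSeq table used (assembly ARS-UI_Ramb_v3.0). Members are therefore described by position, level and span, the labelled tissue could not be checked against its marker genes, and no function is given for any of them. Positions count from 1, after 1 was added to the deposited starts, on a genome build not given in the sources used here. In a bulk sample, fewer cells of a type and less RNA per cell cannot be told apart.

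Of 14361 identifiers listed once in the thin-tail and 15266 in the fat-tail table, 13312 were listed once in both and lay off the mitochondrial chromosome. All 13312 had identical starts and ends in the tables. The span minimum left 9526 identifiers, of which 6708 were listed at 0 in both libraries, 760 were above 0 in the thin-tail library only and 462 in the fat-tail library only. Thus 16.8% of the identifiers of sufficient span, 1596 in all, were above 0 in both libraries, and 889 of these stayed below 1 FPKM in each. The member with the lowest level reached 1.001 FPKM in its higher library, and the identifier just outside reached 0.998 FPKM. The shortest member spanned 201 bp, the longest identifier that failed only the span minimum 195 bp, and 11 identifiers failed that minimum alone.

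The members covered a wide range of levels. In the thin-tail library they ran from 0.124 to 10743 FPKM, with a median of 4.58 and quartiles of 1.80 and 20.1 FPKM. In the fat-tail library they ran from 0.0615 to 13774 FPKM, with a median of 3.79 and quartiles of 1.43 and 16.9 FPKM. At least 100 FPKM was listed for 80 members in the thin-tail and 73 in the fat-tail library. The 8 highest members of each library held 50.7% of the summed level of all members in the thin-tail and 55.7% in the fat-tail library. Across members, which are not replicates, the levels of the libraries had a Spearman correlation of 0.871, against 0.881 across 11936 other loci. Those other loci had been matched between the tables by position and met the same span and level rule. They serve as the background below.

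**Figure D1:**
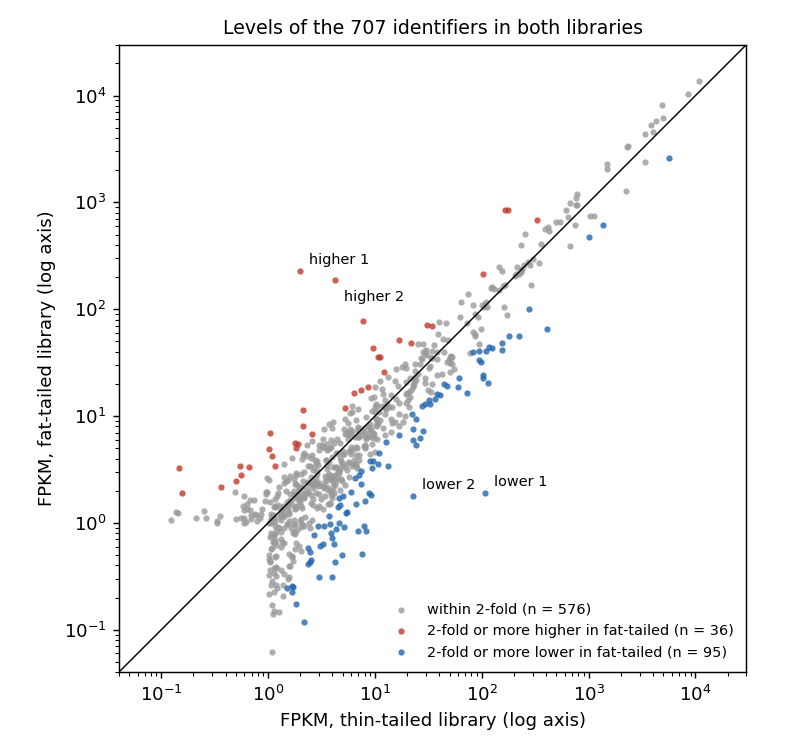
Each point is 1 of the 707 identifiers, with its FPKM in the thin-tail library on the horizontal and in the fat-tail library on the vertical log axis, and the line marks equality. Red points (36) are at least 2-fold higher and blue points (95) at least 2-fold lower in the fat-tail library on the FPKM + 1 scale, and the 2 highest and 2 lowest ratios with intervals that do not overlap are labelled.

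The members were shorter and more thinly covered than the other matched loci. Their median span was 1911 bp, against 13609 bp, and 246 members, 34.8%, spanned less than 1000 bp, against 1311 of the 11936 other loci. The total depth is unknown, but the deposited interval around each value gives the number of fragments it implies, if its width comes from counting alone. The median member rested on 33.4 implied fragments in the thin-tail and 26.6 in the fat-tail library, and the median other locus on 144.3 and 119.2. The interval of the median member extended by 34.6% of its FPKM to each side in the thin-tail and by 38.8% in the fat-tail library, against 16.6% and 18.3% for the other loci. Fewer than 10 implied fragments were found for 171 members in the thin-tail and 216 in the fat-tail library.

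Most short members had spans divisible by 3, as an uninterrupted coding sequence without UTRs would have. This held for 195 of the 246 members under 1000 bp, or 79.3%, against 33.0% of 1311 other matched loci of that span. Among the 1724 identifiers of that span listed at 0 in both libraries the share was 67.3%. In members of 5000 bp or more, 33.5% of spans were divisible by 3. No other locus of either table overlapped 530 of the 707 members, and 62.9% of the other matched loci were free of overlap. The tables give no strand, so the remaining 177 could share fragments with a locus on either strand.

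The typical member was slightly lower in the fat-tail library, as was the typical other locus. Differences are given as the log2 of fat-tail over thin-tail FPKM, each with 1 added, which understates the ratios of low values. The median over the members was -0.18, with quartiles at -0.67 and 0.31. Over the other matched loci it was -0.11, with quartiles at -0.60 and 0.36. The ratio lay above 0 for 276 of the 707 members. The level rule admits a member through the library where it is higher. At least 1 FPKM was reached by 664 members in the thin-tail and 599 in the fat-tail library, so the rule bears on this lean. With 1 FPKM required in both libraries, the median of the remaining 556 members was -0.10. With no level filter it was -0.026 over 1596 identifiers. Centred on the median of all matched loci, -0.11, the members' median was -0.07.

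At least 2-fold differences were found for 131 members, 36 higher and 95 lower in the fat-tail library. These were 5.09% and 13.4% of the members, beside 7.39% and 13.2% of all 12642 matched loci under the same rule. With 1 FPKM added, the share of lower members was thus near the background. The remaining 576 members, 81.5%, lay within 2-fold. Higher members made up 27.5% of the calls, and 39.7% when centred on the median of all matched loci. With both libraries brought to the same total of FPKM over all loci they made up 0.330%. With equal totals over nuclear loci of at least 200 bp they made up 25%. A 4-fold difference or more was reached by 6 higher and 11 lower members, and an 8-fold one by 3 and 2. Without the added 1 FPKM, 69 of the 707 members were 2-fold higher and 166 lower, beside 1179 and 2072 of the 11936 other matched loci. The share of lower members was then above that of the other loci, and the share of higher members near theirs. With it, 14 of the 457 members with at least 10 implied fragments in both libraries were higher and 47 lower. Of other matched loci under that filter, 772 of 10685 on chromosomes were higher and 1110 lower, and 17 and 21 of 260 on scaffolds. With at least 1 FPKM required in both libraries instead, 29 of 556 members were higher and 64 lower.

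The deposited intervals separated the libraries for fewer members than for other loci. The interval of the fat-tail library lay wholly above that of the thin-tail library for 81 members and wholly below it for 149, or 11.5% and 21.1%, beside 19.2% and 30.7% of all matched loci. For the other 477 members, 67.5%, the intervals overlapped. With at least 1 FPKM required in both libraries, intervals were separate for 74 higher and 112 lower members of 556. Of the 36 members at least 2-fold higher, 24 had separate intervals, and of the 95 lower ones 73 had. Implied fragments differed in the direction of the FPKM for all 131 called members and by at least 2-fold for 35 of the 36 and 90 of the 95. They derive from those same FPKM estimates and are no second measurement.

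The highest ratios belonged to short loci, and both leading ones were close to undetected in the thin-tail library. ENSOARG00000023915 (chromosome 7, 23928588 to 23928924, 337 bp) stood at 2.003 FPKM (deposited interval 0 to 4.84) in the thin-tail and 228.3 (198.2 to 258.4) in the fat-tail library. Its log2 ratio was 6.25, and combining opposite ends of the intervals it ran from 5.09 to 8.02. Behind these values lay 2 implied fragments in the thin-tail and 230 in the fat-tail library, a 115-fold ratio with an exact 95% counting interval of 31.5 to 955-fold. No other locus of either table overlapped it.

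ENSOARG00000022840 (chromosome 2, 52567380 to 52567658, 279 bp) stood at 4.20 FPKM (0 to 10.2) in the thin-tail and 189.1 (151.0 to 227.3) in the fat-tail library. Its log2 ratio was 5.19, from 3.77 to 7.83. It too rested on 2 implied fragments in the thin-tail library, against 98 in the fat-tail, a 49.4-fold ratio with a counting interval of 13.2 to 410-fold. These counting intervals, and those given below, cover the sampling of fragments in these libraries only. They allow neither for the choice of these members by their extreme ratios nor for the unknown depth of each library.

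The next 3 members in this direction were also under 500 bp, and 2 of them were abundant in both libraries. The third, of 413 bp on a scaffold (a sequence not named as a chromosome), read 7.74 FPKM (1.89 to 13.6) and 77.0 (59.3 to 94.8) in the thin-tail and fat-tail library, on 7 and 75 implied fragments. The fourth (chromosome 7, 39726641 to 39726939, 299 bp) read 165.9 FPKM (133.6 to 198.1) and 847.8 (777.1 to 918.4), a 5.11-fold difference.

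The fifth (chromosome 20, 25015205 to 25015535, 331 bp) read 175.6 FPKM (146.5 to 204.6) and 847.7 (785.1 to 910.4), a 4.83-fold difference. Implied fragments of the fourth and the fifth were 5.45-fold and 5.02-fold higher. Both rested on more than 100 implied fragments in each library, and nothing in either table overlapped them. Their separate intervals are no result, since only members with separate intervals were ranked. Scaled to the same total of FPKM over all loci they changed direction, with log2 ratios of -0.83 and -0.91, both above the members' median of -1.97 on that scaling. Scaled to the same total over nuclear loci of at least 200 bp they stood at 2.31 and 2.23.

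Longer members followed at lower levels. A 946 bp locus on chromosome 18 (66487432 to 66488377) read 2.12 FPKM (0.517 to 3.72) and 11.5 (7.57 to 15.4). A member on chromosome X (126758758 to 126779499) stood at 0.146 FPKM (0.0154 to 0.277) and 3.28 (2.67 to 3.90), a 22.5-fold difference that the added 1 FPKM turned into a log2 ratio of 1.90. It rested on 5 and 113 implied fragments. Another, on chromosome 19 (50374942 to 50376301), stood at 11.2 FPKM (8.05 to 14.4) and 36.1 (30.3 to 41.8). It lay inside an assembled locus of about the same ends in both tables, which read 4.93 FPKM in the thin-tail and 36.5 in the fat-tail library, so both loci stood higher there. On the scaling to equal FPKM totals over all loci the chromosome 18 and chromosome 19 members changed direction, with log2 ratios of -0.47 and -1.31. With equal totals over nuclear loci of at least 200 bp they stood at 1.965 and 1.566.

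In the other direction 1 member stood far from the rest. ENSOARG00000007452 (chromosome 1, 111014975 to 111016714, 1740 bp) stood at 107.9 FPKM (102.0 to 113.9) in the thin-tail and 1.90 (1.09 to 2.71) in the fat-tail library, a 56.8-fold difference. Its log2 ratio was -5.23, from -5.78 to -4.80, on 1310 and 22 implied fragments. In the thin-tail table an assembled locus of 125112 bp at 18.6 FPKM spanned it, and in the fat-tail table no other locus overlapped it. The assemblies thus differed at this position, and the part of that difference in the ratio was not tested.

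ENSOARG00000000837 (chromosome 18, 63299203 to 63320396, 21194 bp) stood at 22.9 FPKM (19.6 to 26.2) in the thin-tail and 1.77 (0.823 to 2.71) in the fat-tail library, a 13.0-fold difference. Its log2 ratio was -3.11, from -3.90 to -2.47, on 192 and 14 implied fragments. A short assembled locus inside it was also lower in the fat-tail library, at 160.3 FPKM (148.6 to 172.1) against 51.7 (44.7 to 58.6).

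The next members in this direction were lower by 4.48-fold to 14.9-fold, several on few fragments. The third, of 201 bp on a scaffold, read 410.2 FPKM (241.6 to 578.8) and 65.5 (6.92 to 124.1), on 23.7 and 5 implied fragments. The fourth (chromosome 1, 255247938 to 255249743) stood at 7.54 FPKM (5.31 to 9.77) and 0.507 (0 to 1.09). The assembled locus of 136696 bp around it read 1.28 and 1.53 FPKM, with intervals that overlapped, so it did not share the low fat-tail value of the member.

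The fifth (chromosome 11, 62049389 to 62049706, 318 bp) read 113.2 FPKM (91.5 to 134.9) and 20.4 (11.5 to 29.3). The assembled locus around it was lower as well, at 3.63 and 0.559 FPKM. The sixth (chromosome 14, 54460739 to 54478865) stood at 8.26 FPKM (5.29 to 11.2) and 0.833 (0 to 1.80). The seventh (chromosome 14, 60197420 to 60200917) stood at 7.89 FPKM (4.64 to 11.1) and 0.939 (0 to 2.33). The fat-tail values of the chromosome 14 loci and of the chromosome 1 locus at 255247938 rested on 3, 2 and 3 implied fragments, and the counting intervals of their ratios ran from 3.22 to 52.8-fold, from 2.98 to 104.8-fold and from 4.93 to 77.1-fold. The eighth, of 390 bp on a scaffold, read 102.4 FPKM (65.6 to 139.2) and 22.8 (6.69 to 39.0).

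**Figure D2:**
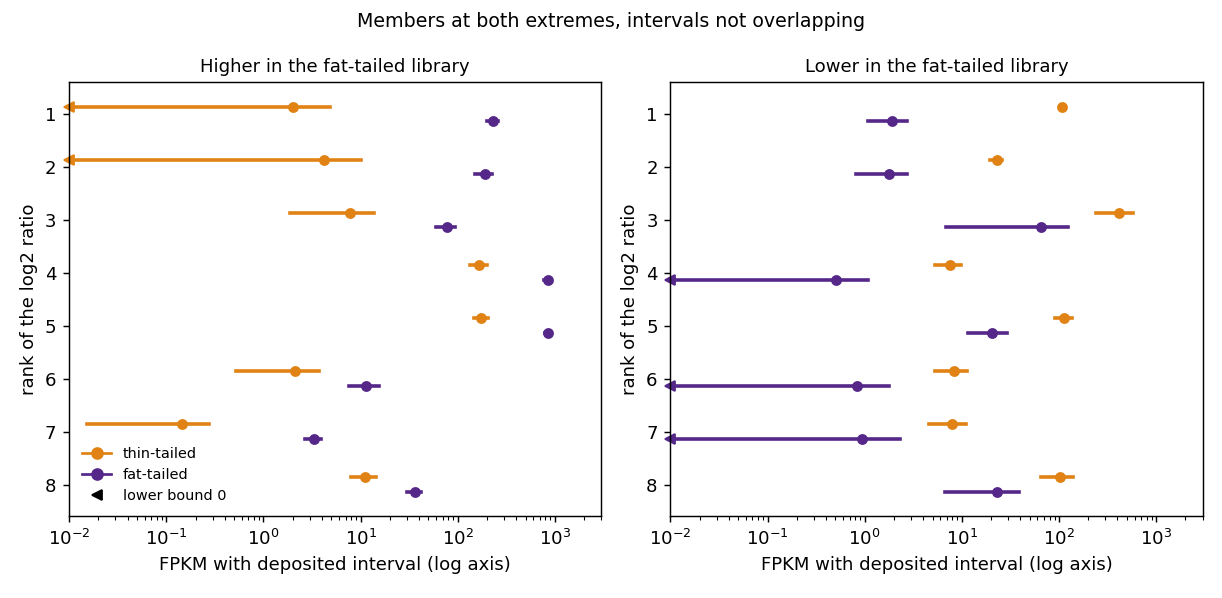
FPKM (log axis) of the 8 members with the highest (left) and the 8 with the lowest (right) log2 ratio among those whose deposited intervals do not overlap, by rank. Points are the deposited values, lines the deposited intervals, and arrowheads mark a lower bound of 0. The first of the higher members stood at 2.003 and 228.3 FPKM and the first of the lower ones 107.9 and 1.90 FPKM in the thin-tail and fat-tail library.

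Of the 8 members with the highest mean level, 7 stood higher in the fat-tail library by deposited FPKM, by 1.16-fold to 1.67-fold, but all 8 stood lower there once FPKM totals over all loci were equalised. The log2 ratios of the 7 then lay between -2.98 and -2.45. With totals equalised over nuclear loci of at least 200 bp instead, the 7 stayed higher, at log2 ratios of 0.17 to 0.71. The highest (chromosome 5, 59281058 to 59284719) stood at 10743 FPKM (10612 to 10874) in the thin-tail and 13774 (13625 to 13924) in the fat-tail library. The second (chromosome 2, 237679017 to 237679295) read 8524 FPKM (8269 to 8780) and 10382 (10113 to 10650). The largest difference of the 7 was at the third (chromosome 15, 39762740 to 39763018), with 4859 FPKM (4670 to 5048) and 8139 (7906 to 8371).

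The fourth to the seventh, on chromosomes 13, 5, 4 and 1, differed by 1.26-fold, 1.35-fold, 1.40-fold and 1.16-fold. The exception was a locus of 884 bp on chromosome 5 (41845444 to 41846327), at 5603 FPKM (5310 to 5896) and 2603 (2416 to 2790). There the fat-tail value was lower, by 2.15-fold in FPKM and by 1.89-fold in implied fragments. Intervals of all 8 were separate between the libraries, and none of the 8 overlapped another locus.

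Over the 75 members with a mean of at least 100 FPKM the median log2 ratio was 0.20, and 50 of them lay above 0. Separate intervals were found for 36 higher and 15 lower members of this class. By 2-fold differences the order was the reverse, with 5 higher and 8 lower. Of 1170 other matched loci of that level, 102 were at least 2-fold higher and 187 lower. The 632 members under 100 FPKM had a median of -0.23, with 45 higher and 134 lower by separate intervals. Among other matched loci the median was -0.13 over 1170 abundant loci, with 381 higher and 500 lower by separate intervals. It was -0.11 over 10766 less abundant ones, with 1964 higher and 3236 lower. Among less abundant loci, intervals were thus separate less often in members than in other loci, in both directions. The abundant members were short, with a median span of 579 bp against 5665 bp for the abundant other loci. In the 53 abundant members under 1000 bp the median was 0.25, and in 220 abundant other loci of that span it was 0.10. In 22 abundant members of 1000 bp or more it was 0.08, against -0.18 in 950 other loci. Centred on the median of all matched loci, the abundant members stood at 0.31. With FPKM totals over all loci equalised they stood at -2.97, below the members' median of -1.97, a scaling on which the added 1 FPKM keeps low values from falling as far. With totals over nuclear loci of at least 200 bp equalised they stood at 0.16. No test of these differences was possible with 1 library per tail type.

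Several members read nearly the same in both libraries. One on chromosome 16 (10645511 to 10646274) stood at 235.3 FPKM in both, with intervals of 222.9 to 247.7 in each. Loci on chromosome 11 (10673669 to 10675811), chromosome 10 (32541478 to 32541870) and chromosome 2 (243688775 to 243689122) read 105.3 and 105.4, 238.0 and 238.5, and 206.7 and 204.2 FPKM. Among the 147 members with at least 20 FPKM in both libraries, 43 lay within 1.2-fold of equality. Near-identical gene copies can share fragments. A single pair of members had the same span and levels within 5% of each other in both libraries, the 348 bp loci on chromosome 20 (25939960 to 25940307) and chromosome 24 (30242995 to 30243342). They read 2328 and 2276 FPKM in the thin-tail and 3355 and 3295 FPKM in the fat-tail library, and whether they share fragments was not tested.

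Members of 200 to under 500 bp had a median log2 ratio of 0.04, with 14 of 123 at least 2-fold higher and 19 lower. Those of 500 to under 1000 bp had a median of -0.06, with 8 of 123 higher and 21 lower. In members of 5000 to under 20000 bp the median was -0.26, with 2 of 132 higher and 15 lower, and in the 125 members of 20000 bp or more it was -0.23, with 2 higher and 11 lower. Counts of 2-fold differences did not run the same way over span in the other matched loci. There, 31 of 448 were higher and 40 lower at 200 to under 500 bp, 270 of 3292 higher and 405 lower at 5000 to under 20000 bp, and 382 of 4918 higher and 933 lower at 20000 bp or more, so that in them the lower calls were most frequent at the longest spans. The other matched loci had medians of 0.18 at 500 to under 1000 bp, with 62 of 863 higher and 25 lower, and 0.09 at 1000 to under 2000 bp. Members of those spans stood at -0.06 and -0.28, that is, below the other loci. At 20000 bp or more members and other loci had medians of -0.23 and -0.26. One fragment weighs more in a short locus. It was worth a median of 0.893 FPKM in members under 500 bp and 0.0561 FPKM in members of 20000 bp or more in the thin-tail library. Members under 500 bp rested on a median of 16.0 implied fragments there and other loci of that span on 35.5.

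**Figure D3:**
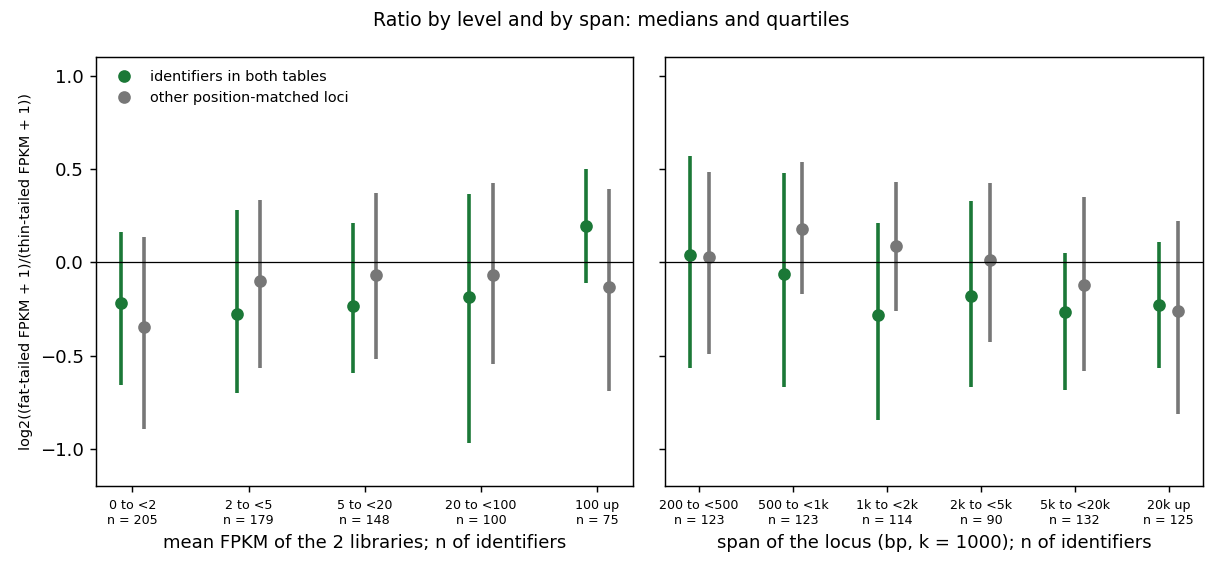
Median (points) and quartiles (lines) of the log2 ratio of fat-tail over thin-tail FPKM, each with 1 FPKM added, by mean level (left) and by span (right), for the 707 identifiers and for 11936 other position-matched loci. Identifiers of at least 100 FPKM had a median of 0.20 and the other loci of that level one of -0.13, and identifiers of 500 to under 5000 bp lay below the other loci of the same span.

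Members on scaffolds were lower in the fat-tail library more often than those on chromosomes. Scaffolds held 69 members (9.76%, on 68 scaffolds), against 2.47% of the other matched loci. Of these 69, 25 were at least 2-fold lower and 2 higher, and the quartiles of their log2 ratio were -1.27 and -0.01 around a median of -0.66. Of the 638 members on chromosomes, 70 were lower and 34 higher, with a median of -0.15. Intervals were separate for 20 lower and 5 higher scaffold members, or 29.0% and 7.25%. For members on chromosomes the shares were 20.2% and 11.9%, and for all matched loci 30.7% and 19.2%. By intervals the share of lower scaffold members was thus near that of all matched loci. The 295 other matched loci on scaffolds showed no such lean of the ratio, with 28 lower and 22 higher and a median of 0.03. By separate intervals 50 of them were lower and 54 higher.

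Scaffold members rested on a median of 21.0 implied fragments in the thin-tail and 11.0 in the fat-tail library, and the part of this thin coverage in the difference was not tested. In the 32 scaffold members with at least 10 implied fragments in both libraries the median was -0.38, with 9 lower and 1 higher, against -0.11 in 425 such members on chromosomes, with 38 lower and 13 higher. The 260 other matched loci on scaffolds that passed this filter had a median of 0.06, with 21 lower and 17 higher. Scaffold members under 1000 bp (25) and of 1000 bp or more (44) had medians of -0.62 and -0.66. Overlap with other loci was rare among them, and the 66 that overlapped none had a median of -0.66. Centred on the median of all matched loci the scaffold members stood at -0.55 and the members on chromosomes at -0.04. With FPKM totals over all loci equalised they stood at -1.92 and -1.98, and with totals over nuclear loci of at least 200 bp equalised at -0.67 and -0.17. On plain ratios, without the added 1 FPKM, they stood at -1.05 and -0.19.

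The members were spread over all 27 nuclear chromosomes, from 6 on chromosome 26 to 64 on chromosome 3. Chromosome medians ran from -0.50 on chromosome 25 (10 members) to 0.44 on chromosome 23 (12 members). On chromosome 14 the 29 members had a median of -0.35, with 7 at least 2-fold lower and none higher with 1 FPKM added. The other matched loci there had a median of 0.04, with 55 of 624 lower and 53 higher. On chromosome 11 the 32 members had a median of -0.22, with 3 lower and 2 higher, and on chromosome 20 the 26 members had one of -0.23, with 4 lower and 1 higher. Of the other matched loci, 82 of 705 were lower and 78 higher on chromosome 11, and 40 of 330 lower and 31 higher on chromosome 20. With 1 FPKM added, none of the 19 members on chromosome 10 differed by 2-fold, and their quartiles lay at -0.13 and 0.32. On plain FPKM, a member at 3.74 and 8.40 FPKM was 2.25-fold higher in the fat-tail library. Another, at 0.581 and 1.45 FPKM, was 2.50-fold higher. Separate intervals were found for 4 higher and 0 lower members there, and for 36 higher and 80 lower other matched loci. Of the 209 other matched loci on that chromosome, 41 were lower and 14 higher. Most chromosomes held under 30 members, so these medians rest on few loci.

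**Figure D4:**
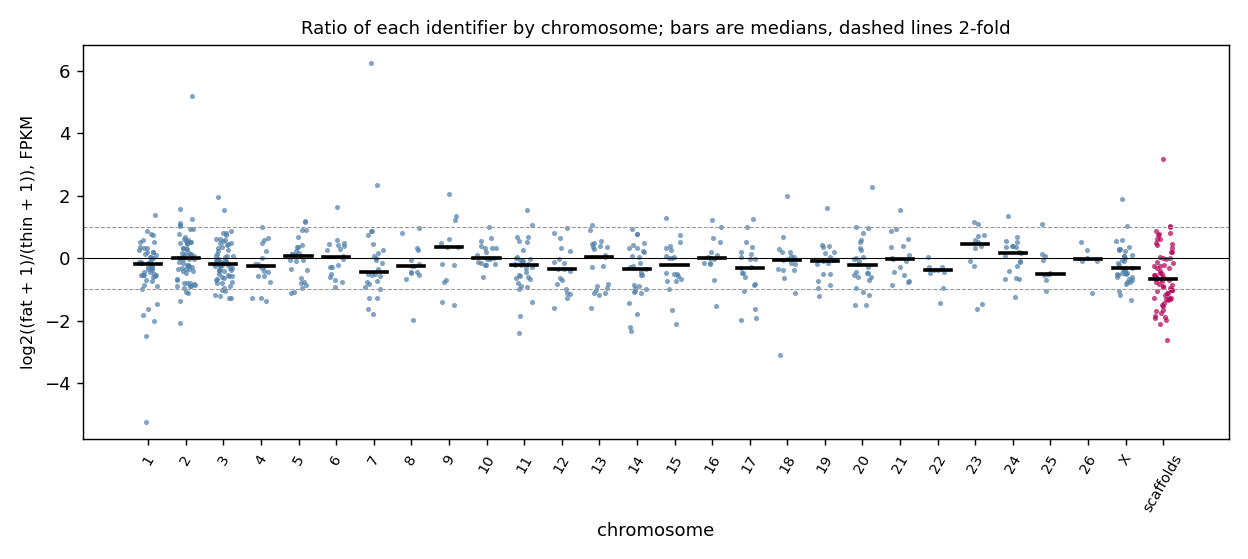
Log2 ratio of fat-tail over thin-tail FPKM, each with 1 FPKM added, for each of the 707 identifiers by chromosome, with the scaffolds last. Thick bars are medians and dashed lines mark 2-fold. The 69 scaffold members had a median of -0.66, below that of every chromosome.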

How the data were processed

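The authors deposited FPKM values with a lower and an upper bound per locus, 1 table per library, with the column names that Cufflinks and Cuffdiff write, per the file headers. The tools named, with no version, were FastQC, TopHat and Cuffdiff, per the submitters' processing notes. RNA was taken up in TRIzol and sequenced on an Illumina platform after poly(A) enrichment, per the labels' protocols. For the genome build, the annotation and the scaling of one library to the other, nothing is given in the sources used here. Low values do not fix the depth, because transcript lengths are not in the tables.

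Identifiers were joined on the identifier itself. The background loci were paired by position as mutual best partners with an overlap of at least 80% of both, ties left out, which gave 28177 pairs, and 706 of the members paired with themselves. Implied fragments were computed as (2 × FPKM / (upper bound − FPKM)) squared. Exact 95% counting intervals are Clopper-Pearson intervals on rounded implied fragments and were made where a library had 3 or fewer. Tables were processed with Python 3.11.15, pandas 2.3.3 and scipy 1.17.1. The computations were tested on simulated data.

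With no gene symbols, the 2 highest and 2 lowest ratios with separate intervals were printed by identifier. Ranks up to 8 in each direction, the 8 most abundant members and the 4 nearest to equality with at least 20 FPKM in both libraries were given by position. Other members and classes were described after their values were seen. Marker lists of adipocytes, endothelial cells, macrophages, fibroblasts, muscle and blood need symbols and gave no result. The members and lists were chosen with earlier results of these data known. Alternatives covered the added value, the filters, the scaling, overlap and implied fragments.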

Additional observations from a re-analysis of the deposited data

How the results depend on the processing

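No paired analysis was possible because the groups share a single replicate number. Lower members were more numerous than higher ones under all 17 alternatives to the 2-fold counts and all 12 to the interval counts. The median stayed below 0 under all 16 of its own. Requiring identical starts and ends kept all 707 members, so it had to repeat the main values. Dropping the level filter had to repeat the 2-fold counts, since identifiers below 1 FPKM in both libraries cannot reach 2-fold with 1 added. From 36 higher and 95 lower members, the 2-fold counts moved by over 1.5 times to 69 and 166 with nothing added to the FPKM, 63 and 160 with 0.1 FPKM, 13 and 40 with 5 FPKM, 69 and 164 by implied fragments, 6 and 11 at 4-fold, 14 and 55 for spans of at least 1000 bp, and 2 and 604 with equal FPKM totals over all loci. With at least 10 implied fragments in both libraries they were 14 and 47. A stricter threshold or filter selects fewer members by construction, and a larger added value draws ratios towards equality. The equal totals over all loci rest on a fat-tail total 9.15 times the thin-tail one. Over nuclear loci of at least 200 bp the totals were 2.36e+06 FPKM in the thin-tail and 2.42e+06 in the fat-tail library. The excess thus lay in loci under 200 bp or on the mitochondrial chromosome, which the rule for members leaves out. The median moved from -0.18 to -0.092 with 5 FPKM added, -0.026 with no level filter, -0.10 with 1 FPKM in both libraries, -0.11 with 5 FPKM in at least 1, -0.066 when centred, -0.25 by implied fragments and -1.97 with equal totals over all loci. By separate intervals, 81 higher members became 41 at 1000 bp or more and 3 with equal totals, and 149 lower ones became 591 with equal totals. Of 196 recomputed ratios of the 28 members described singly, 19 changed sign. Among members at least 2-fold apart, 4 did so, all with equal totals over all loci: the fourth, the fifth, the sixth and the eighth higher members, to -0.83, -0.91, -0.47 and -1.31. That scaling also turned 7 of the most abundant members, to between -2.98 and -2.45, and 2 of the 4 near equality. Centring, implied fragments and equal totals over loci of 200 bp or more each changed the sign of 2 of those 4. Leaving out scaffolds or requiring 10 fragments was chosen after the data were seen. Depth limits each value, since 75 thin-tail and 105 fat-tail values of members had a lower bound of 0.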

Other observations

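Among the members with fewer than 100 implied fragments, 505 in the thin-tail and 531 in the fat-tail library, the implied number lay within 0.02 of a whole number for 45.3% and 48.4%. Together the members held 3.90% of the summed FPKM of all nuclear loci of at least 200 bp in the thin-tail and 4.34% in the fat-tail library. In members under 1000 bp, the 195 with a span divisible by 3 had a median log2 ratio of 0.03 and the other 51 one of -0.27. Both groups held members at least 2-fold higher (15 and 7) and lower (31 and 9) in the fat-tail library. The other matched loci under 1000 bp had medians of 0.17 (433 with a span divisible by 3, 28 higher and 19 lower) and 0.13 (878 others, 65 higher and 46 lower). Of the 5 higher members with the largest ratios, the second (279 bp) had a span divisible by 3. These classes were chosen after the values were seen.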
